A study of Mus musculus with 14 samples.

Results

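The cords of ovariectomized female C57Bl/6 mice with experimental autoimmune encephalomyelitis (EAE) were compared between treatment with dihydrotestosterone (DHT), an androgen that aromatase does not turn into estradiol, and treatment with vehicle. Of the 14 libraries of the series, the 7 marked as female by their column names were taken, 3 from DHT mice and 4 from vehicle mice, and the 16703 genes of the deposited table were compared between them. Mice of both groups, 9 to 10 weeks old, were kept for a week before EAE was induced with a MOG peptide in complete Freund's adjuvant. DHT at 0.04 mg per day or its oily carrier was given by the nose from the onset of signs for 8 days. The total RNA of whole cord was sequenced, and the Methods give 4 animals per group where the table holds 3 female DHT libraries. As the vehicle mice carried the disease and the ovariectomy too, neither a healthy cord nor a cord with ovarian hormones enters the comparison.

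In EAE, T cells primed against a myelin antigen enter the cord and draw in monocytes and neutrophils, while resident microglia and astrocytes become reactive and myelin, synapses and axons are damaged. Androgens act on transcription in part through palindromic DNA elements, which they share in part with glucocorticoids and progesterone. The libraries were made from whole tissue, so fewer cells of a type and less RNA per cell cannot be told apart, and a higher share of a library cannot be told apart from a higher amount of RNA in the cord.

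The 7 libraries are named by the numbers in their columns, DHT 1 to DHT 3 and vehicle 1 to vehicle 4, which give them no order. Their totals after the normalization by the authors were 29311155 to 31098108 in the vehicle group and 32224727 to 35761972 in the DHT group. One library went against its label. Xist, the RNA of the inactive X chromosome, stood at 8.35, 7.92 and 8.004 log2 CPM (counts scaled to the size of the library, on the log2 scale) in vehicle 1, 2 and 4 and at 9.22, 6.80 and 8.73 in the DHT libraries, but at 3.04 in the library labelled vehicle 3. The Y-linked gene Ddx3y stood at 0.77 log2 CPM in vehicle 3 and between -3.99 and -2.51 in the other 6 libraries, where a gene without a read has -3.99 log2 CPM. Results are therefore given with and without vehicle 3. The libraries stand for animals according to the Methods, and the p-values below measure the spread between these libraries.

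Across all genes, limma called 4764 of 16703 (28.5%) at an adjusted p under 0.05, of which 2150 (12.9%) rose and 2614 (15.6%) fell with DHT. The falls were larger, with a median log2 fold change of -0.80 against 0.51 for the rises, and the median over all genes was -0.02. Among the 735 genes with a log2 fold change below -2, 405 passed the test, and among the 143 with one above 1, 72 did. The calls lie close to the threshold: the smallest adjusted p in limma was 0.0430 and was shared by 2467 genes, none passed 0.01, and 8133 genes had an unadjusted p under 0.05. With vehicle 1, vehicle 2, vehicle 4, DHT 1 or DHT 2 left out, limma called 0 genes, at 5053 to 7475 genes with an unadjusted p under 0.05. Without the library labelled vehicle 3 it called 2762, with 1672 up and 1090 down, and without DHT 3 it called 7528, with 3196 up and 4332 down. Counts of listed genes without vehicle 3 or without DHT 3, given below, are to be set beside these counts of all 16703 genes. The shares of 12.9% and 15.6% belong to the full fit. Of the genes named here, 29 rose and 62 fell, and without vehicle 3, 26 of those that rose and 14 of those that fell still passed, all with the same sign as in the full fit. The 4764 called genes kept the sign of their fold change in each of these 7 fits, which share most of their libraries. The balance of rises and falls depended on the scale: 45.1% of the called genes rose as deposited, 60.5% without vehicle 3, 60.4% after quantile normalization and 77.4% after centring on 32 housekeeping genes, where the median log2 fold change of all genes moved to 0.13 and 0.28 in the last pair. With a factor drawn from those housekeeping genes as a covariate, limma called 0 genes (134 with an unadjusted p under 0.05), and 4136 of the 4764 kept their sign. That factor stood at -0.47 to -0.14 in the vehicle libraries and at 0.63, 0.50 and -0.03 in DHT 1 to 3, so it moved with the groups. The 32 genes were not scaled before it was drawn, so genes with a wide range weigh more. They include B2m, which had the lowest log2 fold change among them (-2.31). B2m is on the MHC class I list too, so the covariate can take up the same shift as the immune lists. The part of B2m in the factor was not tested. Under that covariate the medians of the T cell, monocyte, microglial, reactive astrocyte, chemokine, MHC, interferon, complement, cell cycle and lysosomal lists, which were below 0 as deposited, stood between 0.04 and 0.49, while those of the neutrophil, NK and cytotoxic, dendritic cell, cytokine, endothelial, immediate early and ribosomal lists stayed below 0, between -0.39 and -0.01. Lists with medians above 0 as deposited did not all move alike there. The sensory ganglion median rose from 0.23 to 1.17. Those of Schwann cells with peripheral myelin, red cells and mitochondrial DNA went below 0, from 0.48 to -0.42, from 1.47 to -0.28 and from 0.16 to -0.05. Several neuronal and glial medians moved toward 0. The presynaptic median went from 0.56 to 0.09, the postsynaptic from 0.62 to 0.08, the inhibitory from 0.58 to 0.08 and the excitatory from 0.60 to 0.01. The astrocyte median stood at 0.14, that of mature oligodendrocytes at 0.14 and the cholinergic one at 0.38.

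**Figure D1:**
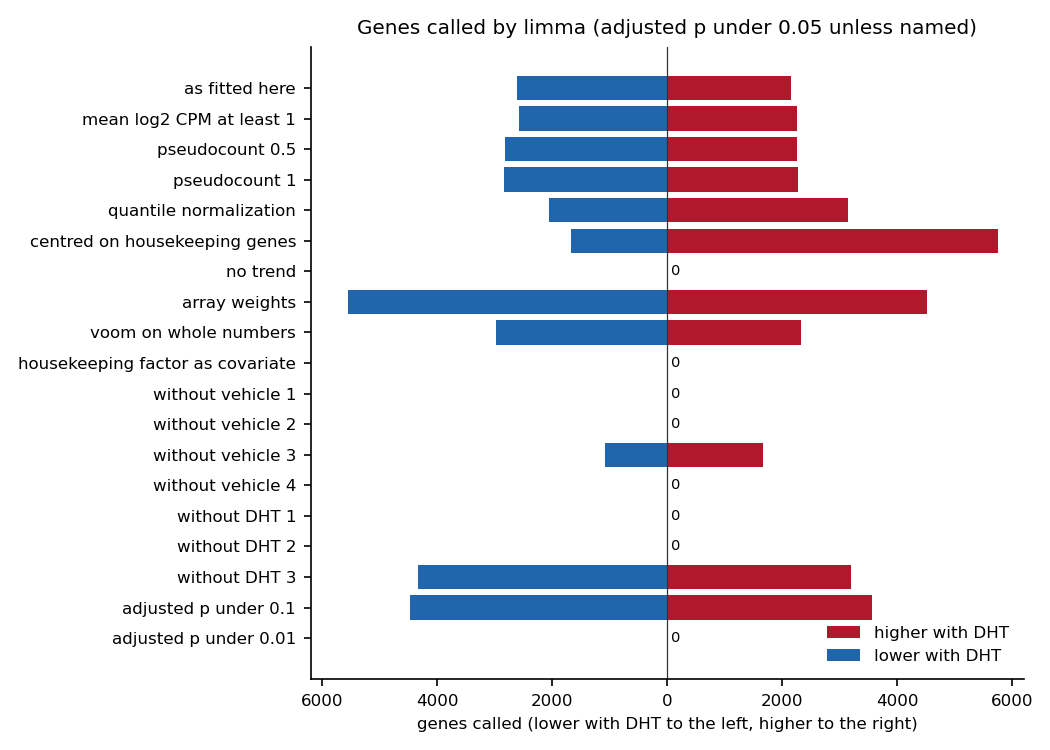
Number of genes called by limma in the fit described and in each alternative, with genes lower with DHT drawn to the left of 0 and genes higher with DHT to the right (x axis, number of genes). The fit called 2150 up and 2614 down, while 5 of the 7 fits that leave out 1 library called 0.

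The 3 DHT libraries responded to unlike degrees. Each gene was compared with the lowest and the highest of the 4 vehicle libraries. DHT 1 lay below that range for 39.2% of all genes and above it for 38.1%, DHT 2 for 41.8% and 33.6%, and DHT 3 for 25.8% and 23%. A difference of more than 4 on the log2 scale below the vehicle mean was seen for 408 genes in DHT 1, for 22 in DHT 2 and for 0 in DHT 3, and one of more than 2 for 1353, 913 and 3 genes. Among the 4764 called genes the shift from the vehicle mean was largest in DHT 1 and smallest in DHT 3 for 3283, and largest in DHT 2 and smallest in DHT 3 for 1348. DHT 3 had the smallest shift in 97.2% of the called genes and in 76.4% of all genes, and the largest shift in 23 called genes. For the genes that fell, the median difference from the vehicle mean was -1.03 in DHT 1, -0.97 in DHT 2 and -0.39 in DHT 3. For those that rose it was 0.63, 0.59 and 0.31. In DHT 3, 2365 of the 2614 genes that fell and 2039 of the 2150 that rose still lay outside the vehicle range, a share fixed in part by the call itself. The spread over the DHT libraries exceeded that over the vehicle libraries in 3376 called genes, against 51.6% of all genes.

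**Figure D2:**
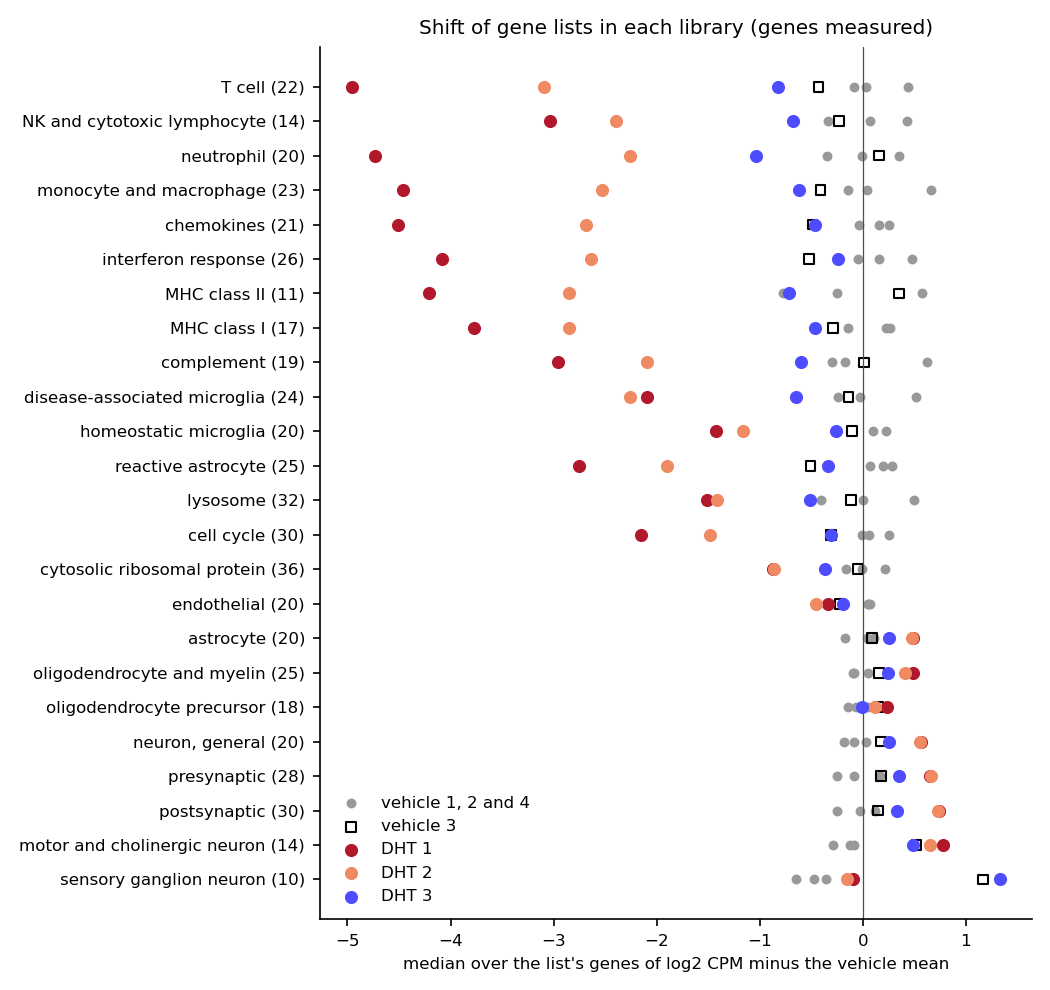
Median difference in log2 CPM from the vehicle mean (x axis) over the measured genes of 24 gene lists (y axis, number of genes in parentheses), with 1 point per library. T cell genes stood at -4.96 in DHT 1, -3.09 in DHT 2 and -0.82 in DHT 3, presynaptic genes at 0.66, 0.66 and 0.35, and the open squares of vehicle 3 lie near those of DHT 3 for chemokine, cell cycle and sensory ganglion genes.

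Genes of T cells were lower in the DHT cords. Of 22 measured T cell genes, 14 fell and 0 rose, beside 15.6% and 12.9% of all genes, with a median log2 fold change of -2.995. Lck, the kinase that starts signalling from the T cell receptor, stood at 3.68, 3.57, 3.602 and 4.36 log2 CPM in vehicle 1 to 4 and at 0.33, 0.82 and 3.01 in DHT 1 to 3. The groups did not overlap, with DHT 3 nearest to the vehicle libraries, and Lck fell with a log2 fold change of -2.41 ± 0.61 (SE, limma adjusted p = 0.0430). Tcf7, a transcription factor of naive and memory T cells, fell by 1.04 on the log2 scale. Cd3e, a chain of the receptor complex itself, stood at 3.14, 3.02, 2.84 and 3.68 log2 CPM with vehicle and at -3.06, -0.19 and 2.16 with DHT, with DHT 1 farthest below the vehicle libraries and DHT 3 nearest to them (log2 fold change -3.53 ± 1.08, adjusted p = 0.0481). Another chain, Cd3g, at -3.51 ± 1.17, did not pass (adjusted p = 0.0574). Below the vehicle range lay 20 of the 22 genes in DHT 1, 20 in DHT 2 and 17 in DHT 3, beside 39.2%, 41.8% and 25.8% of all genes. The 8 measured genes of the Gimap family, GTPases of lymphocytes chosen after their values were seen, all fell. Without the library labelled vehicle 3, 5 of the 22 fell and 1 rose, beside 1090 and 1672 of all 16703 genes. Without DHT 3, 20 fell and 1 rose, beside 4332 and 3196 of all genes.

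The genes of NK cells and cytotoxic lymphocytes had median differences of -3.03, -2.40 and -0.68. Their levels were low: 1 of 14 such genes had a mean of at least 2 log2 CPM. With a minimum mean of 1 log2 CPM, 3 of them were left. Of these 0 fell, and 3 had an unadjusted p under 0.05 in limma. Of all 14 genes 7 fell, beside 15.6% of all genes. Among them was Klrb1c, the NK cell receptor NK1.1, which stood at -0.18, -0.21, -0.37 and 0.16 log2 CPM with vehicle and at -2.75, -2.30 and -0.76 with DHT (log2 fold change -1.79 ± 0.47, limma adjusted p = 0.0430). Ccl5, a chemokine that cytotoxic cells release, ranged from 3.63 to 5.34 log2 CPM with vehicle and stood at -1.93, 0.57 and 3.64 with DHT, where DHT 3 was level with the lowest vehicle library (adjusted p = 0.0544). B cell genes were near the lower end of detection, and among 12 the one that fell was Cd79b, a chain of the B cell receptor. With vehicle 3 left out, 2 of the 14 cytotoxic genes and 0 of the 12 B cell genes fell.

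The lists of myeloid cells that enter from blood had medians below the vehicle level, with fewer calls and with DHT libraries that lay far apart. Neutrophil genes had median differences of -4.73, -2.26 and -1.04, and 4 of 20 fell, a share near the 15.6% of all genes that fell. S100a8, a subunit of the calcium-binding protein calprotectin, stood at 5.34, 5.84, 6.46 and 5.98 log2 CPM with vehicle and at 0.89, 3.30 and 4.68 with DHT (log2 fold change -2.95 ± 0.81, limma adjusted p = 0.0438). Csf3r, the receptor for the growth factor of granulocytes, ranged from 6.27 to 7.12 log2 CPM with vehicle and stood at 2.71, 4.04 and 5.94 with DHT, a fall of 2.59 on the log2 scale. Of 23 genes of monocytes and macrophages 9 fell, beside 15.6% of all genes. Among these, Cd68, Fn1, Itgam, Thbs1 and Vcan also stand on other lists described here. Lyz2, the lysozyme of these cells, stood at 9.30, 8.60, 10.80 and 11.58 log2 CPM with vehicle and at 4.48, 6.21 and 8.79 with DHT, where DHT 3 lay between vehicle 1 and vehicle 2 (log2 fold change -3.57 ± 1.11, adjusted p = 0.0496). Ccr2, the receptor by which monocytes enter tissue, did not pass (-2.77 ± 1.0, adjusted p = 0.0694). Without vehicle 3, 1 neutrophil gene and 1 monocyte gene fell, beside 1090 of all 16703 genes. Without DHT 3, 16 and 20 fell, beside 4332 of all genes.

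The genes with the widest range over the DHT libraries, several of them known from inflammatory macrophages, did not pass the test. Arg1, an arginase, had the widest range of all genes with a mean of at least 2 log2 CPM. It stood at 8.95, 8.44, 7.29 and 9.18 log2 CPM with vehicle and at -0.87, 3.76 and 7.84 with DHT, with DHT 3 inside the vehicle range. Acod1, which makes itaconate, stood at -2.29, 2.69 and 6.31 with DHT against 5.89 to 7.96 with vehicle. Neither passed in limma (adjusted p = 0.0734 and 0.0736), nor did Tgm1, Il1rn, Chil3 and Mmp12, whose ranges came next. The 10 largest falls were taken from the called genes with a mean of at least 2 log2 CPM whose groups did not overlap. Slamf7, a receptor of activated leukocytes, stood at 5.65, 4.88, 4.87 and 5.80 log2 CPM with vehicle and at -1.12, 0.89 and 4.56 with DHT (log2 fold change -3.85 ± 1.19, adjusted p = 0.0493). Tnf, the inflammatory cytokine, stood at 3.94, 3.93, 2.84 and 3.89 with vehicle and at -2.29, 0.13 and 2.66 with DHT (-3.48 ± 1.04, adjusted p = 0.0464). Ptafr, Tnfaip2, Il18r1, Wfdc17, Clec12a, Gimap3, Il2rb and Ptpn7 completed the 10 largest falls, at -3.70 to -3.25. Without vehicle 3 the 10 genes kept their direction and no longer passed (limma adjusted p = 0.0565 to 0.0703).

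**Figure D3:**
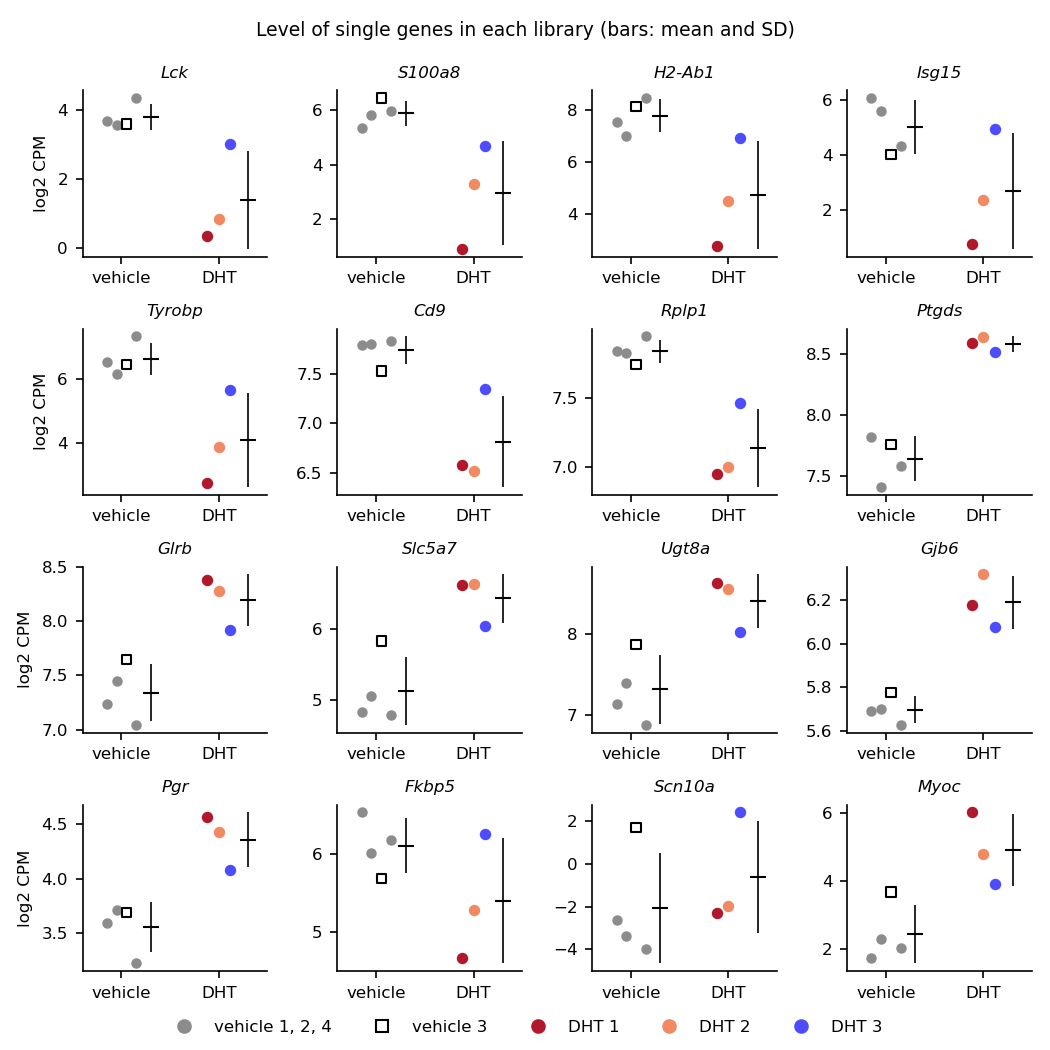
Level in log2 CPM (y axis) of 16 genes in each vehicle and each DHT library, with the mean and SD of each group beside the points. Lck, S100a8, H2-Ab1 and Tyrobp show DHT 1 lowest and DHT 3 nearest to the vehicle libraries, Ptgds shows the 3 DHT libraries together at 8.52 to 8.64, and Scn10a is high in vehicle 3 and DHT 3.

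Interferon-induced genes were low in DHT 1 and DHT 2 and near the vehicle level in DHT 3. All 26 genes of the list lay below the vehicle range in DHT 1 and in DHT 2, and 8 did in DHT 3, where 39.2%, 41.8% and 25.8% of all genes did. The median difference from the vehicle mean was -4.08, -2.64 and -0.24. In limma 3 of the 26 fell, no larger a share than the 15.6% of all genes, among them Irf1, a transcription factor made under interferon, and Gbp4, a guanylate-binding protein. Irf1 stood at 7.49, 7.61, 6.92 and 7.42 log2 CPM with vehicle and at 3.13, 4.44 and 6.82 with DHT, and DHT 3 lay just below the lowest vehicle library (log2 fold change -2.56 ± 0.77, limma adjusted p = 0.0470). Isg15, a ubiquitin-like protein made under interferon, stood at 6.07, 5.61, 4.03 and 4.34 with vehicle and at 0.80, 2.37 and 4.96 with DHT, so that DHT 3 was above vehicle 3 and vehicle 4 (-2.30 ± 0.98, adjusted p = 0.103). Vehicle 3 was the lowest vehicle library for 22 of the 26 genes. Without vehicle 3 none of the 26 fell, where 1090 of all 16703 genes fell and 8021 had an unadjusted p under 0.05 in limma. Without DHT 3 all 26 fell, beside 4332 of all genes.

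The promoters of 4 of these genes are shown because their members share a letter pattern while their levels move together across the 7 libraries. Each sequence is the 250 bases before the transcription start in RefSeq on GRCm38.p6, written in the direction of the gene. Capitals mark matches to GAAANNGAAA, the repeat known from interferon-stimulated response elements, on either strand, so that the reverse complement appears as a repeat of TTTC. The 3 matches in Isg15 overlap.
Isg15 (chr4:156200819-156201068, minus strand): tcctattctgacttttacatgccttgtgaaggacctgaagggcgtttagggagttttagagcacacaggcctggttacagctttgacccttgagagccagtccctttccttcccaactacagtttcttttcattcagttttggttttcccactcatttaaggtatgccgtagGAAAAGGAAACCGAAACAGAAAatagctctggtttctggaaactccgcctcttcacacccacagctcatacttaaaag
Ifit1 (chr19:34640639-34640888, plus strand): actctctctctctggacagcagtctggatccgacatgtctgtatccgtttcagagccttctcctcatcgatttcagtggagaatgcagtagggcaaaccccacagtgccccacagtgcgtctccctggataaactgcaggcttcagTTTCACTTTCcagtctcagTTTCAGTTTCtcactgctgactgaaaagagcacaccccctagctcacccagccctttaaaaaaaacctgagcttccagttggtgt
Ifit3 (chr19:34583279-34583528, plus strand): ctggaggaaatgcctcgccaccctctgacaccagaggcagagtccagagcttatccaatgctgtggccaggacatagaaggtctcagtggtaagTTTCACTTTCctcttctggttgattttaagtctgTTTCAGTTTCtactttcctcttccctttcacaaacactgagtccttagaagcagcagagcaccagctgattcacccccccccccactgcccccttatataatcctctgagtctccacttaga
Rsad2 (chr12:26456453-26456702, minus strand): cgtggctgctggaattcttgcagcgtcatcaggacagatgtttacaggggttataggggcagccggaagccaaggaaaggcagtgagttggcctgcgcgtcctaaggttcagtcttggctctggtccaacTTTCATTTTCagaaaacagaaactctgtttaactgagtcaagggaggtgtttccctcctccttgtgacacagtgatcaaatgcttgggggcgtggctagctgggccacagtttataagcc
The pattern was found in 936 of 27025 genes with a promoter in the table (3.46%). On the interferon list 18 of 26 genes had a promoter there, too few for a share over the list, and those with a match were Isg15, Ifit1, Ifit3, Oas1a, Rsad2, Gbp2, Gbp3, Gbp5, Igtp, Irgm1 and Bst2. The pattern is not particular to this list. It stood in 3 of 14 promoters of MHC class I genes, 5 of 25 of ribosomal protein genes and 3 of 20 of presynaptic genes. For chemokines it was 2 of 15, and for T cell genes 0 of 14. The part of the pattern in the levels was not tested. In the libraries, Ifit1, Ifit3 and Rsad2, whose products restrain viruses, went with Isg15. Ifit1 stood at 7.17, 6.84, 5.54 and 5.88 log2 CPM with vehicle and at 2.86, 3.99 and 6.47 with DHT, and none of these 3 genes passed the test (limma adjusted p = 0.110, 0.0775 and 0.181 for Ifit1, Ifit3 and Rsad2).

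Genes of antigen presentation were lower with DHT. Of 11 genes of MHC class II presentation, which shows peptides to helper T cells, 7 fell. Of 17 genes of MHC class I presentation 12 fell, and of all genes 15.6% did. H2-Ab1, a chain of the class II molecule, stood at 7.54, 7.02, 8.14 and 8.46 log2 CPM with vehicle and at 2.81, 4.51 and 6.93 with DHT, without overlap (log2 fold change -3.04 ± 0.90, limma adjusted p = 0.0461). B2m, the light chain of class I molecules, stood at 10.19, 9.66, 10.24 and 10.85 with vehicle and at 6.87, 7.42 and 9.50 with DHT (-2.31 ± 0.61, adjusted p = 0.0430). The log2 fold changes of the class I list ran from -2.71 to -1.32, a narrow range beside that of the T cell list, from -4.22 to 0.31. Without vehicle 3, 0 class II genes and 1 class I gene fell, beside 1090 of all 16703 genes. Without DHT 3 all 11 and all 17 did, beside 4332 of all genes.

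Chemokines and cytokines, the signals that draw leukocytes in and activate them, were far lower in DHT 1 and DHT 2 than in DHT 3. The chemokine list had median differences of -4.51, -2.68 and -0.46, and 4 of 21 fell, a share near the 15.6% of all genes: Ccl3, Ccl22, Cxcl11 and Cxcl16. Cxcl16, a membrane-bound chemokine of macrophages, stood at 6.20, 5.73, 6.12 and 7.04 log2 CPM with vehicle and at 2.23, 2.94 and 5.46 with DHT (log2 fold change -2.73 ± 0.74, limma adjusted p = 0.0435). Ccl2, which attracts monocytes, stood at 6.13, 5.92, 4.60 and 4.99 with vehicle and at -1.03, 2.72 and 5.18 with DHT, and DHT 3 lay inside the vehicle range (adjusted p = 0.101). The neuronal chemokine Cx3cl1 was the member above the vehicle range in the 3 DHT libraries, in DHT 3 by a narrow margin (0.37 ± 0.12, adjusted p = 0.0503). Of 19 cytokines 5 fell, beside 15.6% of all genes, Tnf, Il12b, Ltb, Tgfb1 and Tnfsf13b. With vehicle 3 left out, 0 chemokines and 0 cytokines fell and 1 chemokine rose. With DHT 3 left out, 17 and 14 fell.

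Microglia are the macrophages that reside in the cord. Their homeostatic genes, P2ry12 and Tmem119 among them, are known to go down when the cells react, while genes such as Apoe, Trem2 and Cd9 go up in disease. Both sets were lower with DHT. Of 20 homeostatic genes 9 fell and 2 rose, with a median log2 fold change of -1.01. Of 24 disease-associated genes 14 fell and 0 rose, with a median of -1.69. Of all genes 15.6% fell and 12.9% rose. Cx3cr1, the fractalkine receptor, stood at 7.23, 6.75, 7.07 and 7.53 log2 CPM with vehicle and at 5.31, 5.75 and 6.67 with DHT (-1.23 ± 0.33, limma adjusted p = 0.0430). P2ry12, an ADP receptor, ranged from 4.84 to 5.40 log2 CPM with vehicle and stood at 4.45, 4.29 and 4.92 with DHT, with DHT 3 inside the range (-0.59 ± 0.20, adjusted p = 0.0601). The list members that rose were Gpr165 and Bin1. Bin1, a membrane-bending protein that neurons and oligodendrocytes make too, stood at 7.95 to 8.09 log2 CPM with vehicle and at 8.32, 8.30 and 8.15 with DHT. As monocyte-derived macrophages express many genes of both lists, the cell of origin cannot be told apart here.

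In the disease-associated list DHT 1 and DHT 2 stood close together, with median differences of -2.09 and -2.26 against -0.64 in DHT 3. Cd9, a tetraspanin, stood at 7.79, 7.80, 7.53 and 7.83 log2 CPM with vehicle and at 6.58, 6.53 and 7.34 with DHT (log2 fold change -0.92 ± 0.20, limma adjusted p = 0.0430). Fabp5, a fatty acid carrier, fell by 0.91 with DHT 2 lowest. Tyrobp, the adaptor of Trem2, stood at 6.53, 6.16, 6.44 and 7.34 with vehicle and at 2.74, 3.88 and 5.66 with DHT (-2.53 ± 0.65, adjusted p = 0.0430), with DHT 1 lowest. Apoe was at 11.87 and 11.99 log2 CPM in vehicle 3 and vehicle 4 and between 9.67 and 10.08 in the other 5 libraries of both groups (-1.05 ± 0.59, adjusted p = 0.196). Without vehicle 3, 5 disease-associated genes and 0 homeostatic genes fell, and without DHT 3, 21 and 13.

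Lysosomal genes fell in larger numbers. Of 32 measured, 23 fell and 1 rose, beside 15.6% and 12.9% of all genes. In DHT 3, 18 lay below the vehicle range, beside 25.8% of all genes. Of the 23 falls, 6 are also disease-associated falls described above: Cd63, Cd68, Ctsb, Ctsd, Ctsl and Ctsz. Gla, the alpha-galactosidase, stood at 5.42, 5.19, 5.08 and 5.64 log2 CPM with vehicle and at 4.13, 4.03 and 4.78 with DHT (log2 fold change -1.02 ± 0.21, limma adjusted p = 0.0430). Npc2, which hands on cholesterol in the lysosome, fell by 1.22, and the protease gene Ctsb by 1.20. The exception was Atp6v1a, a subunit of the proton pump, which stood at 8.32 to 8.49 log2 CPM with vehicle and at 8.80, 8.64 and 8.58 with DHT and rose by 0.29. The order of DHT 1 and DHT 2 was divided among the genes, with DHT 1 shifted most in 16 and DHT 2 in the other 16. Complement genes gave 10 falls among 19, beside 15.6% of all genes, with C1qa, C1qb and C1qc, the chains of C1q, at -2.03 to -1.98. With vehicle 3 left out, 3 lysosomal genes and 0 complement genes fell, and 1 of each rose.

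Genes of cell division were lower with DHT. Of 30 measured genes 10 fell, beside 15.6% of all genes. Below the vehicle range lay 29 in DHT 1, 29 in DHT 2 and 13 in DHT 3, beside 39.2%, 41.8% and 25.8% of all genes. Mki67, the proliferation marker, stood at 6.38, 6.20, 5.96 and 6.59 log2 CPM with vehicle and at 2.29, 4.46 and 5.70 with DHT, without overlap yet not past the threshold (log2 fold change -2.13 ± 0.71, limma adjusted p = 0.0576). Foxm1, a transcription factor of mitosis, fell by 1.41, and Pcna, the sliding clamp of replication, by 0.62. The shift was largest in DHT 1 and smallest in DHT 3 for 29 of the 30 genes. Without vehicle 3, 0 of the 30 fell, beside 1090 of all 16703 genes, and without DHT 3, 28 did, beside 4332 of all genes.

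The genes of the cytosolic ribosomal proteins fell together. All 36 genes of the list fell, and all 36 lay below the vehicle range in each of the 3 DHT libraries, where 21.4% of all genes did so. The median log2 fold change was -0.70, in a range from -1.18 to -0.40, and the median differences were -0.88, -0.87 and -0.37. Rplp1, a protein of the ribosomal stalk, stood at 7.84, 7.82, 7.74 and 7.94 log2 CPM with vehicle and at 6.95, 7.0 and 7.46 with DHT (log2 fold change -0.70 ± 0.13, limma adjusted p = 0.0430). Rps19 fell by 0.93 and Rps15 by 0.58. Of the 80 genes whose symbols are Rpl or Rps with a number and at most a short suffix, 72 fell, beside 15.6% of all genes. This family was chosen after its values were seen, and it leaves out Rplp0, Rplp1 and Rpsa of the list. Of the 77 whose symbols start with Mrpl or Mrps, the proteins of the mitochondrial ribosome, 6 fell and 2 rose. The mean level of 32 genes used as housekeeping controls was lower too, at 7.52 to 7.63 log2 CPM with vehicle and 7.16, 7.18 and 7.44 with DHT. Of these 32 genes 12 fell, ribosomal protein genes among them, and 2 rose, beside 15.6% and 12.9% of all genes. The authors' normalization rests on such genes, and its part in these falls was not tested. Centred on the 32 housekeeping genes, which moves the median of all genes to 0.28, the ribosomal list kept a median of -0.40 with 29 falls, and without vehicle 3 it had 30 falls. With the housekeeping factor as a covariate its median was -0.14 with 0 falls.

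Genes of neurons were higher with DHT, in smaller steps and with less distance between the DHT libraries. Of 28 presynaptic genes 23 rose and 0 fell, of 30 postsynaptic genes 22 rose and 0 fell, and of 20 general neuronal genes 13 rose, beside 12.9% of all genes. The presynaptic median differences were 0.66, 0.66 and 0.35, and 24 of the 28 genes lay above the vehicle range in DHT 3, where 23% of all genes did. Sv2b, a synaptic vesicle protein, stood at 6.07, 6.24, 6.52 and 6.08 log2 CPM with vehicle and at 7.22, 7.03 and 6.78 with DHT (log2 fold change 0.78 ± 0.14, limma adjusted p = 0.0430). Snap25, part of the fusion complex of vesicles, stood at 10.44, 10.58, 10.76 and 10.33 with vehicle and at 11.37, 11.31 and 10.88 with DHT and rose by 0.66. In both genes the groups did not overlap, and vehicle 3 was the highest vehicle library. It was so for 16 of the 28 presynaptic genes, and with it left out 21 still rose.

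Many genes of receptors for inhibitory and for excitatory transmitters rose. Glrb, the glycine receptor subunit that anchors it at the synapse, stood at 7.23, 7.45, 7.65 and 7.04 log2 CPM with vehicle and at 8.38, 8.28 and 7.92 with DHT (log2 fold change 0.85 ± 0.17, limma adjusted p = 0.0430). Gria3, a subunit of the AMPA receptor, rose by 0.66. Among gene families chosen after their values were seen, 11 of 15 genes whose symbols start with Gabr rose and 0 fell, 10 of 17 with symbols starting in Gria, Grik or Grin, mostly glutamate receptor subunits, rose and 1 fell, and 40 of 84 with symbols starting in Kcn, mostly potassium channels, rose and 2 fell. Of all genes 12.9% rose and 15.6% fell. Kcna1, a potassium channel of axons beside the node, stood at 7.08, 7.40, 7.42 and 6.98 with vehicle and at 8.16, 8.08 and 7.79 with DHT. Without vehicle 3, 18 of the 30 postsynaptic genes rose, and without DHT 3, 28 did.

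By transmitter, 8 of 14 genes of inhibitory neurons rose, 6 of 14 of motor and cholinergic neurons and 3 of 12 of excitatory neurons, and 0 of these fell. Of all genes 12.9% rose. Gad1, which makes GABA, stood at 6.46, 6.76, 6.79 and 6.25 log2 CPM with vehicle and at 7.48, 7.36 and 6.98 with DHT (log2 fold change 0.71 ± 0.17, limma adjusted p = 0.0430). Slc17a6, the glutamate transporter of vesicles in the cord, rose by 0.65. Slc5a7, which takes up choline for acetylcholine, was among the 10 largest rises: it stood at 4.84, 5.06, 5.84 and 4.78 with vehicle and at 6.63, 6.64 and 6.05 with DHT (1.31 ± 0.28, adjusted p = 0.0430). Chat, which makes acetylcholine, stood at 3.70, 3.65, 4.23 and 3.27 with vehicle and at 4.50, 4.45 and 4.40 with DHT, so that the 3 DHT libraries were nearly level (0.74 ± 0.21, adjusted p = 0.0440). For the cholinergic list vehicle 3 was the highest vehicle library in 12 of 14 genes, and without it 7 rose.

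Genes of mature oligodendrocytes were higher with DHT. Of 25 genes of these cells and of myelin 8 rose and 0 fell, beside 12.9% and 15.6% of all genes. Mog, the myelin protein against whose peptide the mice were immunized, stood at 7.01, 7.05, 7.32 and 7.29 log2 CPM with vehicle and at 7.63, 7.66 and 7.41 with DHT (log2 fold change 0.40 ± 0.11, limma adjusted p = 0.0430). Ugt8a, an enzyme of galactolipid synthesis, stood at 7.14, 7.40, 7.87 and 6.88 with vehicle and at 8.63, 8.56 and 8.02 with DHT (1.08 ± 0.25, adjusted p = 0.0430). Mbp, myelin basic protein, did not pass (0.45 ± 0.21, adjusted p = 0.123). Among 18 precursor genes 2 rose and 2 fell, beside the same shares of all genes, and Vcan among the falls is on the monocyte list too. Pdgfra, the growth factor receptor of precursors, stood at 5.77 to 6.31 log2 CPM with vehicle and at 5.86, 5.88 and 6.14 with DHT. Without vehicle 3, 7 mature genes rose, and without DHT 3, 14 rose and 3 fell.

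Of 20 astrocyte genes 7 rose and 1 fell, beside 12.9% and 15.6% of all genes. The list of the reactive state had a median below the vehicle level. Gjb6, a connexin, stood at 5.69, 5.70, 5.78 and 5.63 log2 CPM with vehicle and at 6.18, 6.32 and 6.08 with DHT (log2 fold change 0.49 ± 0.07, limma adjusted p = 0.0430). Fgfr3, a growth factor receptor, rose by 0.69, while Sox9, their transcription factor, fell by 0.47. On the reactive list 5 of 25 fell and 0 rose, a share of falls near the 15.6% of all genes. Below the vehicle range lay 24 of them in DHT 1, 22 in DHT 2 and 4 in DHT 3, beside 39.2%, 41.8% and 25.8% of all genes. Vim, an intermediate filament, stood at 9.57, 9.31, 9.02 and 9.90 with vehicle and at 6.69, 7.55 and 8.87 with DHT (-1.74 ± 0.48, adjusted p = 0.0439). Gfap, a filament of astrocytes that stands on both lists, stood at 12.34, 12.22, 11.92 and 11.78 with vehicle and at 10.61, 11.58 and 12.05 with DHT, where the groups overlapped through DHT 3 (-0.65 ± 0.34, adjusted p = 0.164). Without vehicle 3, 0 reactive genes fell and 5 astrocyte genes rose, beside 1090 falls and 1672 rises among all 16703 genes. Without DHT 3, 22 reactive genes fell and 9 astrocyte genes rose, beside 4332 falls and 3196 rises among all genes.

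Genes of vessels were lower in part. Of 20 endothelial genes 6 fell, beside 15.6% of all genes. Among them were Pecam1, which stood at 6.19, 6.40, 5.79 and 6.20 log2 CPM with vehicle and at 5.28, 5.36 and 5.78 with DHT (log2 fold change -0.67 ± 0.17, limma adjusted p = 0.0430), and Cldn5, the claudin of the barrier, which fell by 0.67. The list's median of -0.28 turned to 0.02 when the libraries were centred on housekeeping genes, where 2 rose and 0 fell. Of 11 adhesion molecules 3 fell and 1 rose, beside 15.6% and 12.9% of all genes. Icam1, which leukocytes bind on entry, stood at 6.26, 6.33, 6.01 and 6.67 with vehicle and at 2.45, 3.92 and 5.55 with DHT (-2.34 ± 0.64, adjusted p = 0.0436), and Vcam1 did not pass (-1.01 ± 0.33, adjusted p = 0.0557). Without vehicle 3, 7 endothelial genes and 0 adhesion molecules fell, and 1 adhesion molecule rose.

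Among steroid receptors and enzymes of androgen metabolism 7 of 18 rose and 2 fell, beside 12.9% and 15.6% of all genes. Pgr, the progesterone receptor, stood at 3.596, 3.71, 3.69 and 3.22 log2 CPM with vehicle and at 4.57, 4.43 and 4.08 with DHT, without overlap (log2 fold change 0.80 ± 0.17, limma adjusted p = 0.0430). Esr1, an estrogen receptor, did not pass (0.25 ± 0.15, adjusted p = 0.218). Akr1c14, a hydroxysteroid dehydrogenase that acts on DHT, lay near the lower end of detection and rose by 1.25, and Srd5a3, of the family of 5-alpha-reductases, fell by 0.76. Pgr kept its sign in 16 of 16 refits and passed the threshold in 9 of them, the one without vehicle 3 included (log2 fold change 0.85, adjusted p = 0.0496 in limma). Without vehicle 3, 6 of the 18 genes rose and 0 fell.

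Genes known to respond to androgens or glucocorticoids gave few calls: of 25 measured, Klf9 and Acsl3 rose and Mertk fell. Of all genes 28.5% were called. Acsl3, a fatty acid ligase, stood at 7.14, 7.10, 7.44 and 7.22 log2 CPM with vehicle and at 8.19, 7.93 and 7.58 with DHT (log2 fold change 0.67 ± 0.15, limma adjusted p = 0.0430). Klf9, a transcription factor induced by glucocorticoids, stood at 6.96 to 7.18 with vehicle and at 7.19, 7.42 and 7.40 with DHT, so that DHT 1 had the smallest rise (0.30 ± 0.08, adjusted p = 0.0443). Fkbp5, a cochaperone and a standard readout of both hormones, stood at 6.53, 6.02, 5.69 and 6.18 with vehicle and at 4.67, 5.29 and 6.26 with DHT (-0.70 ± 0.37, adjusted p = 0.170). It was lowest in DHT 1 and within the vehicle range in DHT 3. The order of Sgk1, a kinase induced by steroids, was alike, at 7.61, 7.15, 7.82 and 8.43 with vehicle and 6.39, 7.35 and 8.02 with DHT (-0.50 ± 0.42, adjusted p = 0.370). Without vehicle 3, 1 of the 25 rose and 0 fell.

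The promoter of Sgk1 is shown because it alone among the measured genes with a promoter in the table holds the full palindrome of the steroid receptors, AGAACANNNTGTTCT, searched on both strands, which read alike. The 250 bases before its transcription start follow, from RefSeq on GRCm38.p6, with the palindrome in capitals.
Sgk1 (chr10:21993640-21993889, plus strand): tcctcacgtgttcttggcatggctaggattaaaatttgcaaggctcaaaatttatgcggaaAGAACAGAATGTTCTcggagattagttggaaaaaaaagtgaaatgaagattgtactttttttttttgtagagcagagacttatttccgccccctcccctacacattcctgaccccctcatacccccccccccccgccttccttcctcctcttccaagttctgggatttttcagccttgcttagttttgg
The palindrome was found in 3 of 27025 genes with a promoter there (0.0111%). A match is a pattern of letters, and the levels of Sgk1 did not separate the groups.

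Of the hedgehog genes, Ptch1, the receptor and also a target of the pathway, stood at 6.46, 6.45, 6.65 and 6.20 log2 CPM with vehicle and at 7.34, 7.23 and 6.84 with DHT (log2 fold change 0.69 ± 0.15, limma adjusted p = 0.0430). Gli1, the transcription factor induced by the pathway, stood at 1.76, 2.27, 1.94 and 2.06 with vehicle and at 3.43, 2.74 and 2.63 with DHT (0.93 ± 0.23, adjusted p = 0.0430), and both were without overlap. Smo, the signalling receptor, fell by 0.22. The ligand Shh did not pass, at 2.46 to 3.71 log2 CPM with vehicle and 2.62, 2.76 and 2.58 with DHT. In all 2 of 15 genes rose and 1 fell, beside 12.9% and 15.6% of all genes. Without vehicle 3, Gli1 no longer passed (adjusted p = 0.0541), while Ptch1 and 1 other gene of the list rose and 0 fell.

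Some called genes were picked because their 3 DHT libraries lay close together relative to the fold change. Their evenness is thus fixed by the rule of choice, and how many called genes share it was not counted. The smallest unadjusted p of all genes in limma belonged to Ptgds, the prostaglandin D synthase of meninges and oligodendrocytes, which stood at 7.82, 7.41, 7.76 and 7.58 log2 CPM with vehicle and at 8.59, 8.64 and 8.52 with DHT (log2 fold change 0.94 ± 0.11, limma adjusted p = 0.0430). Arl4d, a small GTPase, stood at 2.25, 2.11, 2.43 and 2.66 with vehicle and at 3.40, 3.49 and 3.53 with DHT, with DHT 3 highest (1.11 ± 0.15, adjusted p = 0.0430). Nipal2, Nos1ap and Pcdhb3 were as even, with ranges of 0.08, 0.08 and 0.14 over the DHT libraries. Among even falls, Clec14a, a lectin of endothelial cells, stood at 3.93, 3.87, 4.33 and 4.90 with vehicle and at 3.46, 3.39 and 3.37 with DHT (-0.85 ± 0.25, adjusted p = 0.0452), and Ccdc130 at 3.45 to 3.59 with vehicle and 3.001, 2.92 and 3.02 with DHT. Tbx1, Klhl36, Hyi and Gm11478 followed. Even in the called genes in which DHT 3 went farthest beyond the other DHT libraries, it went only a little beyond them. Examples are Wnt3 (3.17, 3.23 and 3.33 log2 CPM with DHT against 2.46 to 2.86 with vehicle) and Ptpre (5.83, 5.72 and 5.61 against 5.91 to 6.20).

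Among called genes with a mean of at least 2 log2 CPM and no overlap, the largest rise was that of Myoc, the secreted protein myocilin, known from meninges and nerve roots. It stood at 1.74, 2.29, 3.67 and 2.01 log2 CPM with vehicle and at 6.01, 4.80 and 3.90 with DHT (log2 fold change 2.48 ± 0.61, limma adjusted p = 0.0430). Vehicle 3 was near DHT 3, and the groups did not overlap. Sensory ganglion genes, which mark dorsal root tissue, moved with neither group. Scn10a, a sodium channel of pain neurons, stood at -2.63, -3.39, 1.71 and -3.99 log2 CPM with vehicle and at -2.29, -1.95 and 2.42 with DHT, high in vehicle 3 and DHT 3. All 10 genes of that list had vehicle 3 as the highest vehicle library, and 7 of the 10 lay above the vehicle range in DHT 3, against 1 in DHT 1 and 0 in DHT 2. The part of such root tissue in the other results was not tested. The means of the 10 genes were 2.02 log2 CPM in DHT 3, 1.90 in vehicle 3 and -0.21 to 0.21 in the others.

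**Figure D4:**
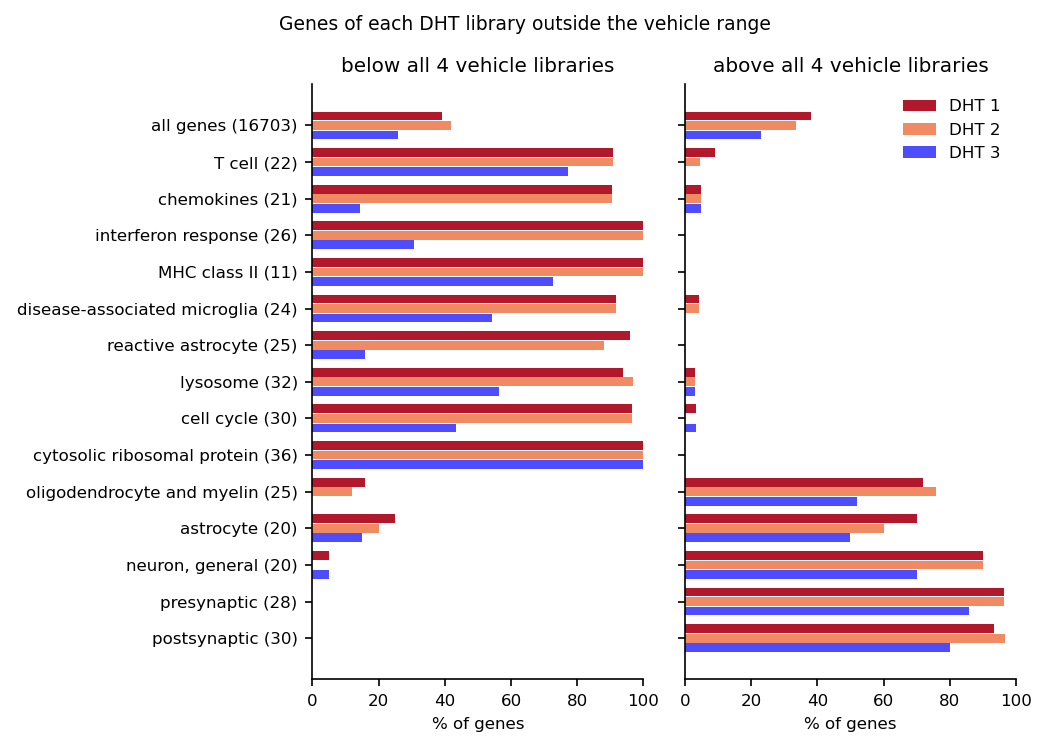
Share of genes (x axis, percent) in each DHT library that lie below (left) or above (right) the 4 vehicle libraries, for all 16703 genes and for 14 lists (y axis, number of genes in parentheses). In DHT 3 the interferon list has 8 of 26 genes below the range, where DHT 1 and DHT 2 have 26, while all 36 ribosomal proteins lie below it in each of the 3 libraries.

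The called genes also differed in their span on the genome, which the test did not use. In GENCODE M21 on GRCm38, matched by symbol for 98% of the genes, the median span from first to last exon was 57.3 kb for genes that rose, 17.8 kb for genes that fell and 23.8 kb for all genes. Their levels differed too, with a median of 5.84 log2 CPM for rises, 4.69 for falls and 4.43 for all genes. These are descriptions of called genes, and no test was run on them.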

How the data were processed

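Total RNA of whole spinal cord was sequenced in 14 libraries, of which the 7 female ones were used. The deposited values are log2 CPM: per the labels and the Methods, the authors trimmed reads with fastp, mapped them to mm10 with DRAGEN, counted genes, left out low ones, joined the female and male datasets by RUVSeq on housekeeping genes and computed log2 CPM with edgeR. Columns of 6 comparisons by the authors (fold changes, p-values) were not used. The joint normalization ties each library to the others, and the 14 columns lack 1 direction of variation, of which vehicle 3 held 23.7% of the weight over 10958 genes. The lower values of each library turned into whole numbers in 100% of cases (tolerance 0.05), and higher values were rounded without this check. The whole numbers gave the totals above, and their size limits the precision of genes near the lower end.

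The 3 DHT and 4 vehicle libraries were fitted alone in limma (3.58.1, R 4.3.3), with a trend, Benjamini-Hochberg adjustment over 16703 genes and a threshold of 0.05. The fit was tested on simulated data. Python 3.11.15, numpy 2.4.6, pandas 2.3.3 and matplotlib 3.10.9 were used for descriptions. Alternatives were a minimum mean of 1 log2 CPM, pseudocounts of 0.5 and 1, quantile normalization, centring on 32 housekeeping genes or their factor as a covariate, no trend, array weights, voom on the whole numbers, thresholds of 0.1 and 0.01, and each of the 7 libraries left out.

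The gene lists and the comparison itself were chosen with earlier results of these data known. Some genes stand on several lists and are counted in each, such as Cd68, Vcan, Trem2, Apoe and B2m. Over genes with a mean of at least 2 log2 CPM, the text names the 10 largest non-overlapping calls and the 8 smallest p in each direction, the 3 smallest p and first 3 members of each list, called members that go against a list's majority, the 6 widest and most even genes and those farthest in DHT 3, and Fkbp5 and the sex-linked genes, as far as there was room. Some genes that the rule names are not reported here. Akr1c14, Bst2, Cd79b, Cxcl11, Gbp2, Gbp3, Gbp5, Ifit1, Ifit3, Igtp, Il12b, Irgm1, Isg15, Kcna1, Ltb, Oas1a and Rsad2 were chosen after their values were seen. Promoters came from RefSeq, gene spans from GENCODE M21.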

Additional observations from a re-analysis of the deposited data

Results flagged for a closer look

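In 11 of 177 values looked at (genes named here and means over gene lists), 1 vehicle library lay far from the other 3, by a gap that chance gives in about 1 in 20 groups of 4. The library labelled vehicle 3 accounted for 10 of the 11 and vehicle 4 for 1.

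Vehicle 3 was low for Xist (3.04 log2 CPM, others 7.92 to 8.35), Cd9 (7.53, others 7.79 to 7.83), Ptafr (5.11, others 6.26 to 6.36), Tgm1 (5.61, others 7.15 to 7.45) and Tnf (2.84, others 3.89 to 3.94). It was high for Ddx3y (0.77 log2 CPM, others -3.38 to -2.93). Over gene lists, its mean was low for endothelial genes (5.15 log2 CPM, others 5.41 to 5.45), chemokines (3.57, others 4.14 to 4.25) and steroid-responsive genes (5.94, others 6.25 to 6.29), and high for sensory ganglion genes (1.90, others -0.21 to -0.17). Vehicle 4 was high for Lck (4.36 log2 CPM, others 3.57 to 3.68). With vehicle 3 left out, the log2 fold changes of Cd9, Ptafr and Tnf stayed below 0, and Cd9 passed in limma (adjusted p = 0.0496) while Ptafr (adjusted p = 0.0565) and Tnf (adjusted p = 0.0596) no longer did.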

How the results depend on the processing

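The number of called genes depended on the fit. Against 4764 genes (2150 up and 2614 down), limma called 7418 (5744 and 1674) after centring on housekeeping genes, 10067 (4523 and 5544) with array weights, 8037 (3556 and 4481) at an adjusted p under 0.1, and 0 at one under 0.01, without a trend (7909 with an unadjusted p under 0.05) and with the housekeeping factor as a covariate (134). Leaving out 1 library at a time gave 0 to 7528 calls, 0 to 3196 up and 0 to 4332 down. Minimum level, pseudocount, quantile normalization and voom each left the count within 1.5 times. The counts of genes outside the vehicle range stayed within 1.5 times in the 7 alternatives run for each DHT library. Over 128 genes named here and their 16 alternatives, 1191 values kept direction and side of the threshold, 695 kept the direction and no longer passed, 92 passed newly and 64 changed sign. No paired analysis was possible because the sample titles give every library the same replicate number, and nothing ties the numbers in the column names of one group to those of the other.

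Genes with log2 fold changes below 0 as deposited and above 0 with the housekeeping factor as a covariate had these log2 fold changes there: Acod1 0.83, Arg1 1.58, B2m 0.15, Bst2 0.51, C1qa 0.29, C1qb 0.31, C1qc 0.29, Ccl2 0.83, Ccl22 0.10, Ccl5 0.81, Ccr2 0.44, Cd3e 0.33, Cd3g 0.61, Chil3 2.19, Clec12a 0.33, Cx3cr1 0.0640, Cxcl16 0.26, Fkbp5 0.57, Gbp2 0.76, Gbp3 0.55, Gbp4 0.27, Gbp5 0.41, Gfap 0.14, Gimap3 0.30, H2-Ab1 0.38, Icam1 0.0214, Ifit1 0.58, Ifit3 0.46, Igtp 0.97, Il18r1 0.33, Il1rn 0.66, Il2rb 0.24, Irf1 0.18, Irgm1 0.58, Isg15 0.45, Lck 0.0168, Lyz2 0.47, Mertk 0.0886, Mki67 0.31, Mmp12 1.90, Oas1a 0.66, P2ry12 0.0557, Pdgfra 0.17, Ptafr 0.0713, Ptpn7 0.25, Rsad2 0.0863, Sgk1 1.02, Slamf7 0.72, Tgm1 1.47, Tmem119 0.35, Tnf 0.11, Tnfaip2 0.16, Trem2 0.19, Tyrobp 0.0433, Vcam1 0.0441, Vim 0.12 and Wfdc17 0.27. Esr1 turned to -0.0241 there. Under centring on housekeeping genes the log2 fold changes of Pdgfra, Shh and Smo turned to 0.16, 0.0646 and 0.0833. Shh also turned to 0.0448 under quantile normalization. With 1 library left out, Shh ranged from -0.378 without vehicle 3 to 0.0410 without vehicle 2, and Scn10a from -0.0419 without DHT 3 to 2.73 without vehicle 3. The cause of these changes was not tested. The factor moved with the groups, so its part and that of DHT cannot be told apart. B2m, listed here, is also among the genes from which the factor was drawn.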

Other observations

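Gene groups outside the account above were compared too, and only some of them differed between DHT and vehicle. Genes that export cholesterol or handle lipid gave 9 falls among 18 (beside 15.6% of all genes, 4 falls without vehicle 3), among them Abca1, the cholesterol exporter, which stood at 7.47, 7.26, 7.96 and 9.0 log2 CPM with vehicle and at 5.97, 5.62 and 7.10 with DHT, while of 23 genes of cholesterol synthesis 0 passed the test in limma and 3 had an unadjusted p under 0.05. Of 28 genes of extracellular matrix and scar 10 fell and 2 rose, beside 15.6% and 12.9% of all genes, and without vehicle 3, 5 fell and 2 rose. Of 23 immediate early genes 8 fell and 0 rose, beside the same shares of all genes, and without vehicle 3, 5 fell and 1 rose. Genes of the nuclear part of oxidative phosphorylation gave 4 rises among 40, beside 12.9% of all genes, with a median log2 fold change of 0.05. The 13 genes of mitochondrial DNA gave 0 calls, with 0 at an unadjusted p under 0.05 in limma.

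Red cell genes varied more among the vehicle libraries than between the groups. Their mean level was 1.27, 2.47, 1.08 and -0.97 log2 CPM with vehicle and 2.78, 2.42 and 1.81 with DHT, and 0 of 7 passed in limma (0 with an unadjusted p under 0.05). Of 13 genes of skeletal muscle 0 passed, with 3 at an unadjusted p under 0.05.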
